A study of Mus musculus with 12 samples.

Results

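The change of the IFNAR-/- effect between day 7 and day 14 of a lung infection with Pneumocystis was measured in CD11c+ lung cells, over all 12 of the 12 arrays of the study. The contrast was the difference IFNAR-/- minus wildtype at day 14 minus the same difference at day 7, and it was computed for 18193 genes. Here "difference" always means IFNAR-/- minus wildtype on 1 day, and "change" means the difference at day 14 minus the difference at day 7. A gene whose change passed an adjusted p of 0.05 above 0 is said to have risen, and one that passed below 0 to have fallen. All values are on the log2 scale, and errors are standard errors (SE) of the limma fit with n = 3 arrays, each of 1 mouse, in each of 4 groups.

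The groups were wildtype at day 7, IFNAR-/- at day 7, wildtype at day 14 and IFNAR-/- at day 14. IFNAR-/- mice lack the receptor for type I interferons, and the labels name no deletion limited to CD11c+ cells. All mice of both genotypes had received Pneumocystis nuclei into the trachea, so the arrays hold no uninfected lung. Other mice were taken at each day, so no mouse was followed over time. The CD11c+ fraction was taken from enzyme-digested lung with magnetic beads and, per the labels, still held a small share of lymphocytes and other cells.

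CD11c is an integrin subunit carried by dendritic cells and alveolar macrophages. Type I interferons, among them interferon beta, bind a receptor made of Ifnar1 and Ifnar2, and signalling from it acts on interferon-stimulated response elements in the promoters of antiviral and immune genes. Interferon gamma, made by T and NK cells, uses another receptor, and many genes respond to both. The lung clears Pneumocystis with the help of CD4 T cells and of macrophages that take up the fungus.

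Ifnar1 was read first as a check of the labels. In wildtype its log2 ratio was 0.08, 0.64 and 0.07 at day 7 and -0.15, 0.07 and 0.11 at day 14. In IFNAR-/- it was -0.53, -1.38 and -0.26 at day 7 and 0.10, -1.01 and 0.39 at day 14. At day 7 the groups were apart, and they overlapped at day 14, and neither difference passed the test. Where the deleted part of the gene lies against the 2 probe sets averaged here is not given in the sources used, so this is no check of the knockout. Ifnar2 changed by -0.23 ± 0.28, with an adjusted p of 0.74. The deposited ratios hold no level that can be set against another gene, so the presence of CD11c transcripts themselves could not be checked.

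A few arrays stood apart. IFNAR-/- day 7 mouse 3 had the highest median log2 ratios of endothelial (2.76), lung epithelial (2.05), fibroblast (1.93) and neutrophil markers (1.87), and it also carried Y-linked Eif2s3y at 2.89 with Xist at -3.98. Wildtype day 7 mouse 1 followed for epithelial (1.44) and endothelial markers (1.54). IFNAR-/- day 14 mouse 2 had the widest spread over genes, with an interquartile range of 0.56 against 0.17 to 0.34 in the other arrays. Technical control signals moved with the contrast as well. The poly-A spike-in signal changed by 3.44, the ratio of 5' to 3' probe sets of actin and Gapdh (5'/3' signal) by 0.78 and the 18S signal by -1.15, and the mean of wildtype at day 14 was the lowest of the 4 groups for the first 2 (-2.16 and -0.45) and the highest for the third (1.24). Single arrays weighed on these values: the poly-A change was 2.09 without IFNAR-/- day 7 mouse 3, and the 18S change was -0.52 without wildtype day 14 mouse 1. The 5'/3' change was 0.55 without wildtype day 14 mouse 3, which stood at -0.91 against -0.24 and -0.18 in its group. Adding the poly-A signal to the fit left 185 genes past the threshold, of which 130 were also called without it, and all 451 kept their sign. Adding the 5'/3' signal left 3 genes, and no member of the gene lists below was among them. All 451 kept their sign there too, the median gene kept 93.2% of its change and the median SE was 1.33 times as large. The 451 genes were picked for a large change in these same arrays, so a kept sign was likely beforehand and is no test. Beyond these fits, the part of the control signals in the results was not tested.

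The genotype effect of 451 genes changed between the days, 2.48% of those tested (limma, Benjamini-Hochberg adjusted p under 0.05). Of these 208 rose (1.14%) and 243 fell (1.34%). The counts of the gene lists below are to be read beside these shares of all genes. The median change was 1.62 over the genes that rose, -1.05 over those that fell and -0.01 over all genes. The genes that rose had a median difference of -0.71 at day 7 and 0.69 at day 14. Those that fell had a median difference of 0.40 at day 7 and -0.60 at day 14.

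A turn of sign of the mean difference was the common form of the change, but it seldom passed on both days. The difference passed at both days in opposite directions in 16 of the risers and 8 of the genes that fell, and in 0.132% of all genes. Of the 208 genes that rose, 186 were lower in IFNAR-/- at day 7 and higher at day 14, 15 were lower on both days and 7 higher on both. Of the 243 that fell, 213 were higher in IFNAR-/- at day 7 and lower at day 14, with 15 lower and 15 higher on both days. By comparison, 53.6% of all genes with a change above 0, called or not, went from lower to higher, and 50.4% of all genes with a change below 0 went from higher to lower. In 110 of the risers the 3 IFNAR-/- arrays lay wholly below wildtype at day 7 and wholly above it at day 14, a pattern that 1.41% of all genes showed. The reverse crossing was seen in 135 of the genes that fell and in 1.88% of all genes. The contrast itself favours such genes, so these shares describe the called genes and are no test.

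Most called genes did not pass on both days. At day 7, 481 genes differed between genotypes (2.64%), among them 79 of the risers and 69 of the genes that fell. At day 14, 917 differed (5.04%), among them 111 of the risers and 141 of the genes that fell. In 35 risers and 42 fallers the difference passed on neither day and the change alone did. The days share no array, but the change shares its arrays with both.

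The change is also the difference day 14 minus day 7 in IFNAR-/- minus the same difference in wildtype. Of the risers, 118 fell between the days in wildtype, where 7.98% of all genes passed (4.1% falling), and 111 rose in IFNAR-/-, where 12.3% passed (4.08% rising). Of the genes that fell, 85 rose in wildtype, as 3.88% of all genes did, and 160 fell in IFNAR-/-, as 8.25% did. Among all genes with a change above 0, 6.63% fell in wildtype and 7.26% rose in IFNAR-/-. Among those with a change below 0, 6.85% rose in wildtype and 15% fell in IFNAR-/-. The change is made of these time differences, so the counts describe the called genes and are no further test. The number of called genes rested on single arrays. Without 1 array it was between 138 and 485. It was 168 without IFNAR-/- day 7 mouse 1, 138 without IFNAR-/- day 7 mouse 2, 262 without IFNAR-/- day 14 mouse 3, 180 without wildtype day 7 mouse 1, 167 without wildtype day 7 mouse 2, 230 without wildtype day 14 mouse 2 and 222 without wildtype day 14 mouse 3.

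**Figure D1:**
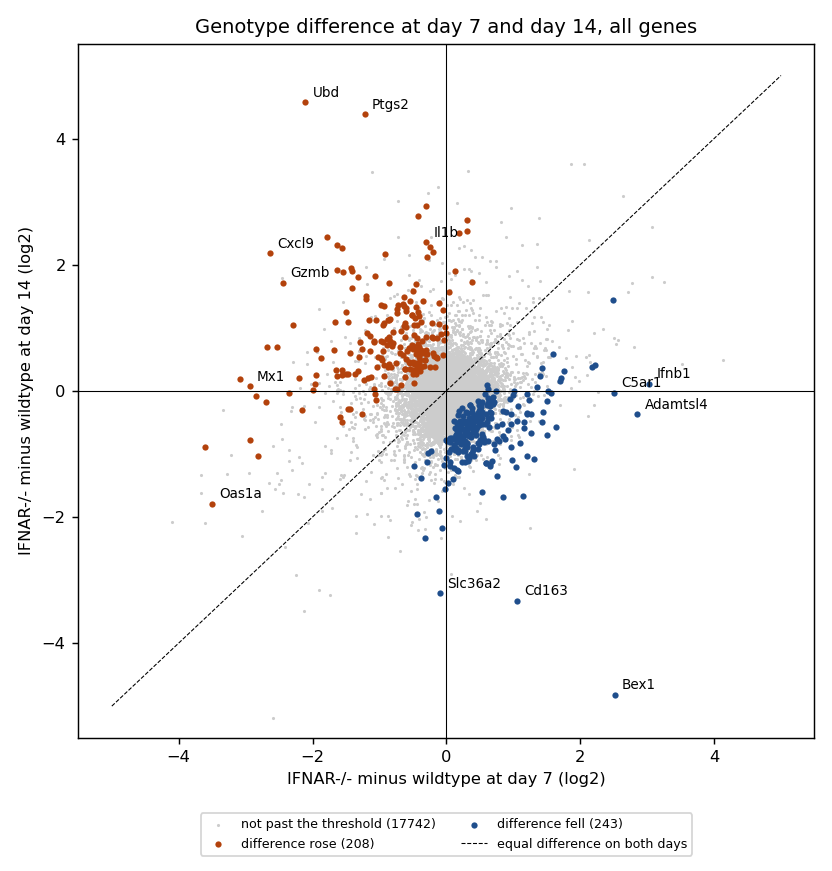
Each point is 1 of 18193 genes, with the difference IFNAR-/- minus wildtype at day 7 on the horizontal axis and at day 14 on the vertical axis (log2, means of 3 arrays per group). Genes on the dashed line had the same difference on both days; the 208 genes that rose lie above it, mostly in the upper left, and the 243 that fell lie below it, mostly in the lower right.

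Among interferon ligands, sensors and inducers, 2 of 24 measured genes rose and 2 fell, with a median change of 0.09. Without 1 array between 2 and 6 passed, with 2 each without IFNAR-/- day 7 mouse 1 or 2. Ifnb1, which encodes interferon beta, was higher in IFNAR-/- at day 7 and level with wildtype at day 14. In wildtype its log2 ratio was -0.38, -0.33 and -0.22 at day 7 and -0.55, 0.04 and 0.20 at day 14. In IFNAR-/- it was 2.44, 3.65 and 2.08 at day 7 and -0.20, 0.31 and -0.08 at day 14. Every IFNAR-/- array lay far above wildtype at day 7, and the genotypes overlapped at day 14. The difference was 3.03 at day 7 and 0.11 at day 14, a change of -2.92 ± 0.48 (adjusted p = 0.014). Ticam1, the adaptor of Toll-like receptor 3, also fell, by a change of -1.16 ± 0.23 (adjusted p = 0.028).

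The DNA-sensing adaptor Sting1 moved the other way. Its log2 ratio was 0.42, 0.49 and -0.03 in wildtype, against -1.12, -1.003 and -1.10 in IFNAR-/- at day 7. By day 14 it was 0.02, 0.02 and -0.39 in wildtype, against 0.17, 0.24 and 0.04 in IFNAR-/-. The genotypes did not overlap on either day and changed places. The gap at day 14 was narrow, with 0.02 in wildtype against 0.04 in IFNAR-/- at its closest. The difference of -1.37 at day 7 passed (limma, adjusted p = 0.0009), and that of 0.26 at day 14 did not (adjusted p = 0.36). The change was 1.63 ± 0.22 (adjusted p = 0.0068). Dhx58, a regulator of cytosolic RNA sensors, rose by 1.37 ± 0.26 (adjusted p = 0.026), from a difference of -1.17 at day 7 to 0.20 at day 14. Irf7, the factor that amplifies interferon production, changed by 1.72 ± 0.51 without passing (adjusted p = 0.1): its difference was -2.59 at day 7 and -0.88 at day 14.

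Of 12 receptor chains, transducers and inhibitors 2 rose and 0 fell, and both encode inhibitors of cytokine signalling. The median change of the list was 0.79. Socs1, a feedback inhibitor of Janus kinases, had log2 ratios of -0.32, 0.03 and -1.17 in wildtype and -2.53, -2.58 and -2.22 in IFNAR-/- at day 7. They were -0.05, 0.58 and 0.02 and 0.15, 0.62 and 0.13 at day 14. IFNAR-/- was low only at day 7, where the genotypes did not overlap, and at day 14 they did. Socs1 changed by 2.07 ± 0.40 (adjusted p = 0.026), and the phosphatase gene Ptpn6 by 0.79 ± 0.17 (adjusted p = 0.034). Among members that did not pass, the change was 1.75 for Stat2 (adjusted p = 0.071), 1.18 for Socs3 (0.06) and 0.82 for Usp18 (0.43), which blocks the type I receptor. In 6 of the 12 fits without 1 array 0 members of this list passed, and at most 4 did: the 6 were those without IFNAR-/- day 7 mouse 1 or 2, wildtype day 7 mouse 1 or 2, or wildtype day 14 mouse 1 or 3. Without the 3 arrays that stood apart 0 passed as well.

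The deficit of interferon-stimulated effectors in IFNAR-/- was smaller at day 14 than at day 7. Of 51 measured members, 13 rose and 0 fell, where 1.14% of all genes rose and 1.34% fell. A change above 0 was seen in 49 members and in 49.2% of all genes. The median difference was -1.37 at day 7 and -0.30 at day 14, and the median change was 0.99. At day 7, 29 members were lower in IFNAR-/- past the threshold, as 1.35% of all genes were, and at day 14, 5 were, as 3.29% of all genes were. With time 37 members fell in wildtype, where 4.1% of all genes did, and 7 in IFNAR-/-, where 8.25% did. Without 1 array between 4 and 19 members passed, with 4 each without IFNAR-/- day 7 mouse 1 and without wildtype day 14 mouse 2. Of the members, 11 passed without the 3 arrays that stood apart and 10 with the poly-A signal in the fit. With the 5'/3' signal in the fit 0 passed, at a median change of 0.82.

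Mx1, a GTPase that blocks viruses, was the member with the lowest p. Its log2 ratio was 1.75, 2.31 and 1.12 in wildtype, against -1.34, -1.49 and -0.82 in IFNAR-/- at day 7. At day 14 it was 0.35, -0.08 and -0.19 in wildtype, against -0.23, 0.50 and 0.05 in IFNAR-/-. A wide gap at day 7 had become an overlap at day 14. The difference went from -2.94 to 0.08, a change of 3.02 ± 0.42 (adjusted p = 0.0087). Eif2ak2, the RNA-activated kinase PKR, changed by 1.74 ± 0.29 and Lgals3bp, a secreted lectin-binding protein, by 2.00 ± 0.34 (adjusted p = 0.017 and 0.018).

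Of 6 measured oligoadenylate synthetase genes, which make an activator of RNA breakdown, 4 were lower in IFNAR-/- past the threshold at day 7 and 1, Oas1a, was on both days. In wildtype Oas1a was 1.60, 1.80 and 1.59 at day 7 and 0.61, 0.55 and 0.77 at day 14. In IFNAR-/- it was -1.87, -1.36 and -2.28 and -0.97, -1.003 and -1.47. IFNAR-/- lay below wildtype on both days, by -3.50 at day 7 and -1.79 at day 14, and the change was 1.70 ± 0.30 (adjusted p = 0.018). Oas3, named here after its values were seen, went from -2.81 to -1.03, a change of 1.79 ± 0.40 (adjusted p = 0.044). Ifit1 did not share this narrowing: its difference was -0.84 at day 7 and -2.04 at day 14, and its change of -1.20 ± 0.63 did not pass (adjusted p = 0.34). Isg15 was not analysed here.

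Promoters of 4 risers are shown because they hold the core of the interferon-stimulated response element, and because their change took different forms: Slamf8 and Socs1 were low in IFNAR-/- at day 7 alone, while at day 14 Oas1a was still lower past the threshold and Oas3 had a difference of -1.03 that did not pass (adjusted p = 0.063). The sequences are the 250 bases before the annotated start of each gene, from RefSeq on GRCm38.p6, read 5' to 3' on the gene's strand. Capitals mark matches of GAAA, any 2 bases and GAAA on either strand, and overlapping matches run together. They lie at chr1:172590569-172590818 (minus strand) for Slamf8, chr16:10785537-10785786 (minus strand) for Socs1, chr5:120907526-120907775 (minus strand) for Oas1a and chr5:120777660-120777909 (minus strand) for Oas3.
Slamf8: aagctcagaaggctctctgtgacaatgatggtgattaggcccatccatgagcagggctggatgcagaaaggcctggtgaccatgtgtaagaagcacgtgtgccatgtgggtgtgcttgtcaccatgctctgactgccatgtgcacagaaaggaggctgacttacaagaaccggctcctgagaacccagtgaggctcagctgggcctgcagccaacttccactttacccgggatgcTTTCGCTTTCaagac
Socs1: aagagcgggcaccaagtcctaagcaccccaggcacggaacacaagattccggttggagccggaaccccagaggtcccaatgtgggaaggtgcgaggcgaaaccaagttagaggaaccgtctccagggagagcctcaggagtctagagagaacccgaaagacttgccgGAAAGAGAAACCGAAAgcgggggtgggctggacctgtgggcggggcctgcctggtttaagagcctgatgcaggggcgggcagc
Oas1a: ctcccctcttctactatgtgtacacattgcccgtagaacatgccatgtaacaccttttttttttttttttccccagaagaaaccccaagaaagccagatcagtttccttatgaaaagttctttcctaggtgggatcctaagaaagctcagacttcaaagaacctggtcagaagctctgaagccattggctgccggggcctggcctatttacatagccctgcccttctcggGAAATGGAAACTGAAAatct
Oas3: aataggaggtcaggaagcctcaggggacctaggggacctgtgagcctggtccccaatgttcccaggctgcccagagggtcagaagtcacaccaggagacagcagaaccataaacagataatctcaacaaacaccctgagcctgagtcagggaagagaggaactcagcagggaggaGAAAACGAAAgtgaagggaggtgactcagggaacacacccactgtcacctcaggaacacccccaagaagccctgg
The last match ends 5 bases before the start in Slamf8, 67 in Socs1, 4 in Oas1a and 65 in Oas3. Over the promoter windows that were given, of 250 bases before to 50 after the start, this motif was found on either strand in 17 of 166 risers (10.2%), in 1 of 201 genes that fell (0.498%) and in 524 of 14452 measured genes (3.63%). Glul is the 1 gene that fell with a match. In the effector list, which was made of interferon targets, 15 of 39 windows held it (38.5%). The gamma-activated sequence TTCNNNGAA was in 12% of the risers' windows, 7.96% of the others' and 8.57% of all. The cyclic AMP element TGACGTCA was in 1.81%, 2.99% and 2.92%, and the kappaB motif in 10.2%, 4.98% and 6.07%. A match is a stretch of letters and does not show binding.

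**Figure D2:**
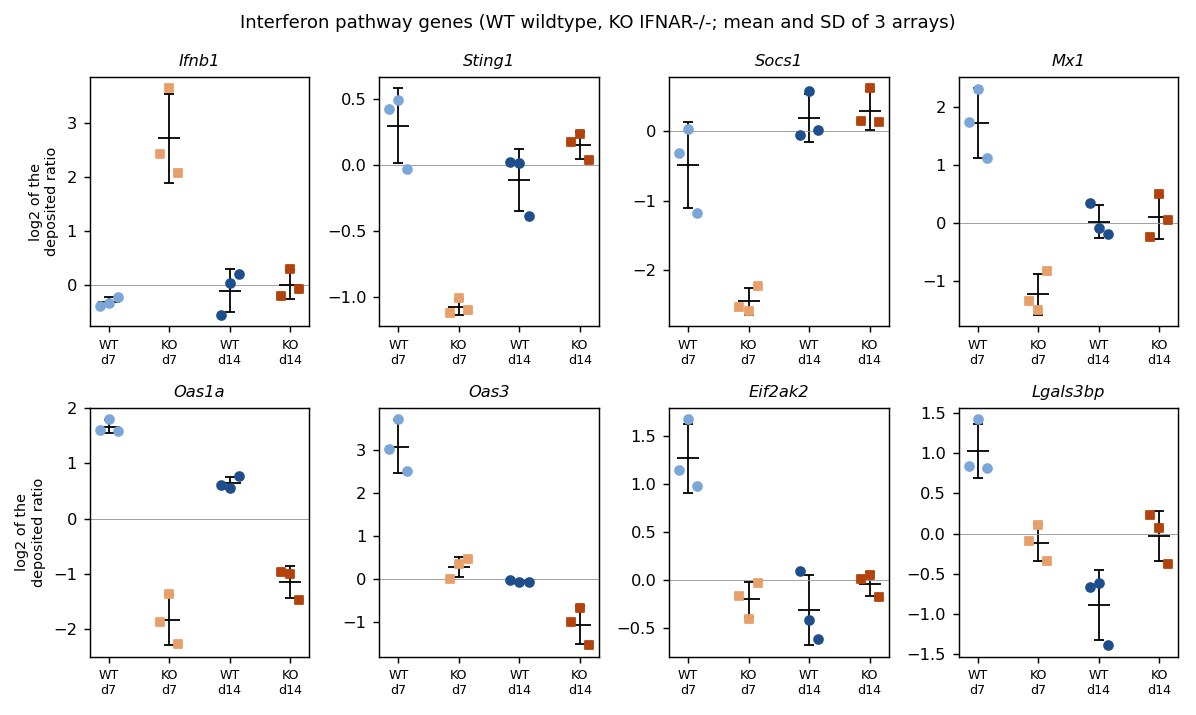
Log2 of the deposited ratio on each array for 8 genes of the interferon pathway, by genotype and day (WT wildtype, circles; KO IFNAR-/-, squares; d7 day 7; d14 day 14), with bars for the mean and standard deviation of 3 arrays. Ifnb1 is high in IFNAR-/- at day 7 alone (2.08 to 3.65), Mx1 and Eif2ak2 are high in wildtype at day 7 alone, and Oas1a and Oas3 lie lower in IFNAR-/- on both days.

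Of 20 measured members of the interferon gamma axis 5 rose (Ifng, Cxcl9, Cxcr3, Ubd and Irf8) and 1 fell (Ifngr1), with a median difference of -0.79 at day 7 and 0.73 at day 14 and a median change of 1.69. By comparison, 1.14% of all genes rose and 1.34% fell. Irf8 and Ifngr1 are named after their values were seen. Without 1 array between 2 and 9 members passed, with 2 each without IFNAR-/- day 7 mouse 1, IFNAR-/- day 7 mouse 2 or wildtype day 7 mouse 1, and without the 3 arrays that stood apart 2 passed.

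Ifng, the ligand, had log2 ratios of 1.15, 2.04 and -0.07 in wildtype and -0.65, -0.88 and -0.27 in IFNAR-/- at day 7. At day 14 they were -1.02, 0.02 and -0.05 and 2.67, 2.28 and 0.95. IFNAR-/- lay below every wildtype array at day 7 and above every one at day 14. The difference went from -1.64 to 2.32, a change of 3.96 ± 0.76 (adjusted p = 0.026). At day 7 the difference did not pass (limma, adjusted p = 0.16), and at day 14 it did (adjusted p = 0.033). Ifngr1, the ligand-binding chain of the receptor, went the other way, from 0.50 to -0.78 (change -1.28 ± 0.27, adjusted p = 0.034). Irf8, a transcription factor that interferon gamma induces, changed by 1.77 ± 0.36 (adjusted p = 0.029).

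Cxcl9, a chemokine that interferon gamma induces and that draws T cells through Cxcr3, crossed in the same way. In wildtype it was 1.91, 2.41 and 0.94 at day 7 and -0.70, -0.59 and -1.57 at day 14. In IFNAR-/- it was -1.34, -0.73 and -0.59 and 1.03, 2.44 and 0.22. No array of one genotype overlapped the other on either day, and the order was reversed. Both days passed by themselves, with -2.64 at day 7 (adjusted p = 0.024) and 2.18 at day 14 (adjusted p = 0.039), and the change was 4.82 ± 0.74 (adjusted p = 0.012). Its receptor gene Cxcr3 changed by 1.96 ± 0.27 (adjusted p = 0.0074). Cxcl10, another Cxcr3 ligand, had a difference of -0.09 at day 7 and 1.74 at day 14, and its change of 1.83 ± 0.64 did not pass (adjusted p = 0.16).

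Ubd, the ubiquitin-like modifier FAT10, had the largest rise of all genes. In wildtype it was 1.86, 3.52 and -0.53 at day 7 and -0.10, -1.03 and -1.77 at day 14. In IFNAR-/- it was -1.04, 0.07 and -0.50 and 3.64, 4.99 and 2.21. The genotypes overlapped at day 7, through wildtype mouse 3, and were far apart at day 14. The change of 6.68 ± 1.30 (adjusted p = 0.027) rested mostly on the difference of 4.58 at day 14. Nos2, the inducible nitric oxide synthase, had a large change that did not pass, 4.25 ± 1.03 (adjusted p = 0.056).

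Of 20 T cell markers 8 rose and 0 fell, with a median change of 1.27. Of 17 cytotoxic and NK cell markers 8 rose and 0 fell, with a median change of 2.29. Over all genes 1.14% rose and 1.34% fell. The median log2 ratio of the T cell markers was 0.33, 0.30 and -0.07 in wildtype, against -0.48, -0.27 and -0.23 in IFNAR-/- at day 7. At day 14 it was -0.31, -0.24 and 0.01 in wildtype, against 0.77, 0.62 and 0.16 in IFNAR-/-. The genotypes did not overlap on either day and changed places. The gap at day 7 was narrow, with -0.07 in wildtype against -0.23 in IFNAR-/- at its closest. Past the threshold 1 T cell marker was lower in IFNAR-/- at day 7 and 7 were higher at day 14. For the cytotoxic list these counts were 2 and 4. Of all genes 1.35% were lower at day 7 and 1.75% higher at day 14. In these bead-sorted samples more lymphocytes and more RNA per lymphocyte cannot be told apart, and the part of the T and NK cells in the changes of other genes was not tested. Without 1 array between 1 and 11 T cell markers passed, with 1 each without IFNAR-/- day 7 mouse 1 or 2, wildtype day 7 mouse 2 or wildtype day 14 mouse 2, and 2 passed without the 3 arrays that stood apart. For the cytotoxic list the range was 3 to 8, with 3 each without IFNAR-/- day 7 mouse 1 or 2, and 5 passed without the 3 arrays.

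Cd3g, a CD3 chain of the T cell receptor, was 1.04, 1.21 and 0.21 in wildtype, against -1.04, -0.90 and -0.25 in IFNAR-/- at day 7. The day 14 values were -0.76, -0.32 and -0.44 and 2.13, 1.62 and 0.38. Both days were free of overlap, in opposite order, and the change was 3.44 ± 0.57 (adjusted p = 0.016). Thy1 changed by 3.55 ± 0.65, Cd8b1, the CD8 beta chain, by 3.37 ± 0.62, and Cd3d by 3.05 ± 0.55 (each with an adjusted p of 0.022). In each of these genes, Cd3g included, the difference passed at day 14 and did not pass at day 7.

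Nkg7, a protein of cytotoxic granules, was 1.62, 0.12 and -0.08 in wildtype, against -1.22, -1.46 and -1.02 in IFNAR-/- at day 7. At day 14 it was -1.23, 0.05 and -0.30 and 2.02, 2.87 and 0.95. The arrays crossed without overlap, with a change of 4.22 ± 0.74 (adjusted p = 0.019). The day 7 difference of Nkg7 did not pass (limma, adjusted p = 0.11), and that at day 14 did (adjusted p = 0.026). Gzmb, the granule protease granzyme B, changed by 4.15 ± 0.81 (adjusted p = 0.028), but IFNAR-/- mouse 3 overlapped wildtype at day 14. The activating receptor Klrk1 changed by 3.34 ± 0.63, the chemokine receptor Cxcr6 by 3.82 ± 0.54 and the death ligand Fasl by 2.58 ± 0.31. Their adjusted p values were 0.025, 0.0091 and 0.0054.

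The other called members of the cytotoxic list were the receptor genes Klrg1 (change 2.07 ± 0.37) and Il2rb (1.76 ± 0.24). After their values were seen, Tbx21 and Eomes, transcription factors of cytotoxic cells, are added with changes of 1.99 ± 0.41 and 0.94 ± 0.21. Of 14 B cell markers 0 passed by limma, 1 had an unadjusted p under 0.05, and the median change was 0.25. Of all genes 2.48% passed and 18.1% had such an unadjusted p, so 0 calls says little for a list this short. Cd79a changed by 0.53 ± 0.39 (adjusted p = 0.52) and Jchain by 1.82 ± 0.66 (adjusted p = 0.17).

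**Figure D3:**
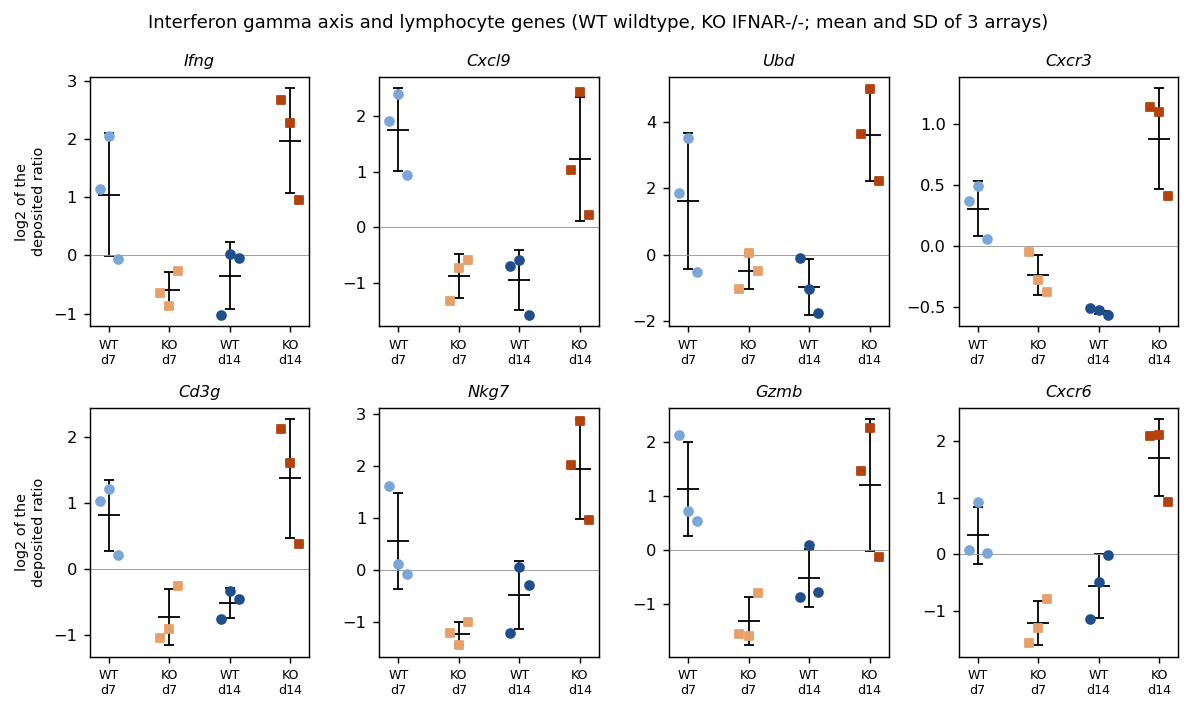
Log2 of the deposited ratio on each array for 4 genes of the interferon gamma axis (top row) and 4 lymphocyte genes (bottom row), by genotype and day (WT wildtype, circles; KO IFNAR-/-, squares; d7 day 7; d14 day 14), with the mean and standard deviation of 3 arrays. IFNAR-/- lies below wildtype at day 7 and above it at day 14 in Ifng, Cxcl9, Cxcr3, Cd3g, Nkg7 and Cxcr6, while single arrays overlap in Ubd (day 7) and Gzmb (day 14).

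Of 15 MHC class II genes 8 rose and 0 fell, where 1.14% of all genes rose and 1.34% fell. The median difference of the list went from -0.41 at day 7 to 0.45 at day 14, with a median change of 0.89. H2-Ab1, the beta chain of I-A, was 0.22, 0.64 and -0.03 in wildtype, against -0.72, -0.77 and -0.58 in IFNAR-/- at day 7. By day 14 it was -0.06, -0.01 and -0.28 and 0.45, 0.29 and 0.39. The arrays did not overlap on either day, but only the day 7 difference passed (limma, adjusted p = 0.0075, against 0.09 at day 14). The change was 1.46 ± 0.22 for H2-Ab1, 1.41 ± 0.21 for its partner chain H2-Aa and 0.86 ± 0.13 for Cd74, the invariant chain. Their adjusted p values were 0.0097, 0.01 and 0.0097.

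The peptide loading gene H2-DMa changed by 1.19 ± 0.21 (adjusted p = 0.018). Ciita, the master regulator of class II genes, and H2-Oa, which restrains peptide loading, were singled out after their values were seen and changed by 1.62 ± 0.30 and 2.90 ± 0.51 (adjusted p = 0.025 and 0.019). Between 4 and 8 class II genes passed without 1 array, 4 without IFNAR-/- day 7 mouse 2, and 7 passed without the 3 arrays that stood apart. Of 16 MHC class I presentation genes 4 rose, as 1.14% of all genes did, and 0 fell, with a median change of 0.87. They were H2-K1 (0.89 ± 0.18), the peptide transporter genes Tap1 (0.83 ± 0.18) and Tap2 (1.21 ± 0.27), and the proteasome activator gene Psme1 (0.96 ± 0.20). The 4 probe sets of Tap1 did not move alike, with changes between -0.04 and 1.71. With the poly-A signal in the fit 0 of the class I genes passed at a median change of 0.96, and without the 3 arrays 0 passed at 0.82. Leaving out 1 array alone gave between 0 and 7, and 0 in 6 of the 12 fits.

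The called members of the costimulation and conventional dendritic cell lists all rose, where 1.14% of all genes rose and 1.34% fell. Of 18 genes of costimulation and maturation 4 rose and 0 fell, with a median change of 0.79. The count was 2 in 8 of the 12 fits without 1 array and 1 with the poly-A signal in the fit. The 4 were Ccr7, the receptor that guides dendritic cells to lymph nodes (2.07 ± 0.28), Fscn1, an actin-bundling protein of mature dendritic cells (1.62 ± 0.27), and the surface proteins Cd86 (1.81 ± 0.38) and Cd83 (2.04 ± 0.45). Ccr7 passed on each day, at -1.29 at day 7 and 0.78 at day 14, while Cd86 was low in IFNAR-/- at day 7 alone (-1.56, against 0.25 at day 14).

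Of 16 conventional dendritic cell markers 3 rose and 0 fell, with a median change of 0.65: Kmo, an enzyme of tryptophan breakdown (1.97 ± 0.29), the integrin gene Itgae (1.86 ± 0.29) and the inhibitory receptor gene Btla (1.98 ± 0.40). The conventional list gave 2 calls in 6 of the 12 fits without 1 array, at most 4, and 1 with the poly-A signal in the fit. Flt3, the receptor that dendritic cells need to develop, changed by 0.93 ± 0.22 and just missed the threshold (adjusted p = 0.052). Of 12 plasmacytoid dendritic cell markers 0 passed by limma, a count that says little where 2.48% of all genes passed. An unadjusted p under 0.05 was seen in 1, and the median difference of the list was -0.60 at day 7 and -0.61 at day 14. Siglech, the defining receptor of these cells, changed by -0.41 ± 0.19 (adjusted p = 0.28) and Bst2 by 0.78 ± 0.39 (adjusted p = 0.33).

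Of 28 cytokine and mediator genes 5 rose (Il1a, Il1b, Osm, Fasl and Ptgs2) and 0 fell, where 1.14% of all genes rose and 1.34% fell. The median difference of the list was -0.22 at day 7 and 0.70 at day 14, and the median change was 1.10. Without 1 array between 3 and 8 passed, with 3 each without IFNAR-/- day 7 mouse 1 or 2, IFNAR-/- day 14 mouse 1 or 3, or wildtype day 14 mouse 2, and with the poly-A signal in the fit 2 did. Il1b, which encodes interleukin 1 beta, was 0.32, 0.28 and 0.21 in wildtype, against 0.02, -0.11 and -0.01 in IFNAR-/- at day 7. The day 14 values were -2.08, -2.51 and -2.29 and 0.30, -0.56 and 0.42. Wildtype at day 14 was low in every array, and the other 3 groups lay close together. The difference of -0.30 at day 7 did not pass (adjusted p = 0.67), that of 2.35 at day 14 did (adjusted p = 0.0009), and the change was 2.66 ± 0.30 (adjusted p = 0.0052).

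Ptgs2, the inducible cyclooxygenase of prostaglandin synthesis, was 0.43, 1.93 and 0.19 in wildtype, against 0.20, -0.59 and -0.72 in IFNAR-/- at day 7. Its day 14 values were -4.67, -2.86 and -3.88 and 1.28, -0.87 and 1.33. Again wildtype at day 14 stood alone at the bottom, and the genotypes overlapped at day 7, through 1 array of each. The change was 5.61 ± 0.92 (adjusted p = 0.015). Il1a changed by 2.41 ± 0.47 (adjusted p = 0.028), and Osm, a cytokine of the interleukin 6 family singled out after its values were seen, by 2.15 ± 0.49 (adjusted p = 0.047). Of 28 chemokines 2 rose, Cxcl9 and the neutrophil attractant Cxcl2 (2.24 ± 0.41, adjusted p = 0.022), with a median change of 0.70. Between 1 and 5 chemokines passed without 1 array, with 1 each without IFNAR-/- day 7 mouse 1 or 2, wildtype day 7 mouse 1 or wildtype day 14 mouse 2. Cxcl13, which draws B cells, changed by 3.17 ± 0.75 and missed the threshold (adjusted p = 0.053).

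Immediate-early factors are made by cells within minutes of a stimulus and also during tissue digestion. Of 26 members 7 rose and 0 fell, from a median difference of -0.08 at day 7 to 0.72 at day 14. In wildtype 19 of them fell with time, as 4.1% of all genes did, and in IFNAR-/- 2 did, a share near the 8.25% of all genes. Nr4a1, an orphan nuclear receptor named after its values were seen, was -3.34, -3.24 and -3.64 in wildtype, against 0.09, -2.05 and 0.04 in IFNAR-/- at day 14, against 0.58, 0.07 and 0.45 and 0.18, -0.32 and -0.05 at day 7. Wildtype at day 14 was low in all 3 arrays, and IFNAR-/- day 14 mouse 2 stood between it and the rest. Nr4a1 changed by 3.20 ± 0.64 and Fosb, also named after its values were seen, by 2.53 ± 0.54 (adjusted p = 0.029 and 0.037).

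The phosphatase gene Dusp2 changed by 1.90 ± 0.30, the stress factor Atf3 by 1.47 ± 0.26 and Ier3 by 1.97 ± 0.38 (adjusted p = 0.012, 0.019 and 0.027). Nr4a2 changed by 2.75 ± 0.44 (adjusted p = 0.013), with its 6 probe sets between -0.01 and 4.78. The best known members were not among the calls, with a change of 0.49 ± 0.21 for Fos (adjusted p = 0.25) and 0.50 ± 0.33 for Egr1 (adjusted p = 0.48). Both still fell with time in wildtype, with -0.70 for Fos and -1.25 for Egr1 (limma, adjusted p = 0.017 and 0.01). At day 14 the difference of Egr1 passed (1.32, adjusted p = 0.013), and that of Fos did not (0.48, adjusted p = 0.089). Of 17 genes of the NF-kB pathway and its feedback 4 rose, namely the inhibitor gene Nfkbie (1.63 ± 0.27), Traf1 (2.19 ± 0.40), Gadd45b (1.29 ± 0.30) and Cd83, with a median change of 0.86. With the poly-A signal in the fit 0 of the immediate-early and 0 of the NF-kB genes passed, while their median changes were 0.77 and 0.83. Without the 3 arrays that stood apart 11 and 6 passed. Without 1 array the immediate-early count lay between 2 and 10, with 2 without IFNAR-/- day 7 mouse 2. The NF-kB count lay between 1 and 7, with 1 each without IFNAR-/- day 7 mouse 2, wildtype day 7 mouse 1 or 2, or wildtype day 14 mouse 2. Of the heat shock genes 0 of 12 passed by limma and 1 had an unadjusted p under 0.05. Hspa1b was scattered in IFNAR-/- at day 14, at 1.40, -3.79 and -0.50. In wildtype at day 14 it was low in every array, at -3.83, -4.17 and -4.57. Its difference day 14 minus day 7 in wildtype was -5.37 and passed (adjusted p = 0.017), while its change did not (adjusted p = 0.3). As 2.48% of all genes passed, 0 of 12 says little.

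Alveolar macrophage markers gave 1 call among 19 measured members, Slc39a2, with a median change of 0.45. Slc39a2, a zinc transporter gene, was -2.49, -3.82 and -3.16 in wildtype, against -0.21, 0.48 and -0.94 in IFNAR-/- at day 14, against 0.42, 0.34 and 0.30 and 0.15, 0.16 and -0.16 at day 7. IFNAR-/- lay below wildtype by a narrow gap at day 7 and far above it at day 14, a change of 3.24 ± 0.50 (adjusted p = 0.012). The day 7 difference of -0.30 did not pass (limma, adjusted p = 0.86), and that of 2.93 at day 14 did (adjusted p = 0.0022). The fatty acid binding protein gene Fabp4 had a change of the opposite sign, -3.15 ± 0.81, that did not pass (adjusted p = 0.066). Of 16 markers of monocytes and recruited macrophages only Cx3cr1, the fractalkine receptor, passed, with a change of 1.65 ± 0.20 (adjusted p = 0.0054) from -0.63 at day 7 to 1.02 at day 14.

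The called genes of alternative activation fell. Of 17 measured 2 fell, Cd163 and Folr2, and 0 rose, with a median change of -0.09. Cd163, the haemoglobin scavenger receptor of tissue macrophages, was -0.81, -0.85 and -0.80 in wildtype, against 0.70, 0.05 and -0.06 in IFNAR-/- at day 7. At day 14 it was 4.07, 2.82 and 3.02 and -0.43, -1.10 and 1.45. Wildtype lay below IFNAR-/- at day 7 and far above it at day 14, with no overlap on either day. The difference went from 1.05 to -3.33, a change of -4.38 ± 0.76 (adjusted p = 0.018). At day 7 it did not pass (limma, adjusted p = 0.45), and at day 14 it did (adjusted p = 0.0096).

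The folate receptor gene Folr2 shared the high wildtype values at day 14, 2.22, 1.56 and 1.62, and changed by -1.53 ± 0.25 (adjusted p = 0.016). Retnla changed by -2.55 ± 0.66 without passing (adjusted p = 0.066). Arg1, arginase 1, ran against Cd163: its difference was -2.32 at day 7 and -0.32 at day 14, and its change of 2.00 ± 0.48 just missed the threshold (adjusted p = 0.053). The fungal receptor gene Clec7a, which encodes Dectin-1, rose by 0.97 ± 0.12 (adjusted p = 0.0065), the 1 call among 18 receptors. Tlr2 changed by 1.25 ± 0.35 without passing (adjusted p = 0.083).

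The called lipid genes fell too. Of 23 genes of PPAR signalling and lipid handling 3 fell and 0 rose, and the median difference went from 0.36 at day 7 to -0.22 at day 14. Angptl4, a lipoprotein lipase inhibitor, was -0.40, -0.37 and 0.00 in wildtype, against 0.49, 0.66 and 1.02 in IFNAR-/- at day 7. Its day 14 values were -0.01, 0.06 and 0.11 and -0.84, -0.83 and -1.45. The arrays crossed without overlap, both days passed, and the change was -2.08 ± 0.27 (adjusted p = 0.0065). The lipid droplet protein gene Plin2 changed by -1.42 ± 0.26 and Ech1, an enzyme of fatty acid oxidation, by -1.32 ± 0.22 (adjusted p = 0.024 and 0.016).

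Glycolysis gave 3 rises among 17 genes and 0 falls, with a median change of 0.61, in the hexokinase genes Hk3 (1.87 ± 0.33) and Hk1 (1.17 ± 0.26) and the phosphofructokinase gene Pfkp (1.72 ± 0.34). Between 1 and 4 glycolysis genes passed without 1 array, with 1 each without IFNAR-/- day 7 mouse 1, IFNAR-/- day 14 mouse 3, wildtype day 7 mouse 1 or 2, or wildtype day 14 mouse 3. With the poly-A signal in the fit 0 did, and without the 3 arrays that stood apart 1 did. In cholesterol synthesis 1 of 16 genes rose, Fdps (0.96 ± 0.21), and in 11 of the 12 fits without 1 array 0 did. In the cell cycle list 1 of 34 rose, Cdk1, the mitotic kinase (1.15 ± 0.26), while 33 of 34 had a change above 0, as 49.2% of all genes had, and the median change was 0.70. The cell cycle count was 0 in 9 of the 12 fits without 1 array and at most 5, and it was 8 without IFNAR-/- day 7 mouse 3 and IFNAR-/- day 14 mouse 2, 19 with array weights and 0 with the poly-A signal in the fit. Rrm2, a subunit of ribonucleotide reductase, changed by 1.74 ± 0.43 and did not pass (adjusted p = 0.056).

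The largest falls were spread over genes of many kinds. Bex1, a small adaptor protein best known from neurons, had a change of -7.33 ± 1.52 (adjusted p = 0.034). In wildtype it was -0.66, -1.89 and 0.45 at day 7 and 4.22, 3.37 and 0.68 at day 14. In IFNAR-/- it was 3.44, 2.70 and -0.70 and -1.98, -2.23 and -1.97. Its arrays lay far apart within every group but IFNAR-/- at day 14, and the genotypes overlapped at day 7. Without 1 array its change lay between -8.59 and -6.52 and passed in 3 of the 12 fits.

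Adamtsl4, a protein of the extracellular matrix, was in contrast tight: 2.78, 3.02 and 2.54 in IFNAR-/- at day 7, and between -0.55 and 0.21 in the other 9 arrays. Its change was -3.22 ± 0.23 (adjusted p = 0.00028). C5ar1, the receptor of complement C5a, had the same form, with 2.78, 2.60 and 2.95 in IFNAR-/- and 0.05, 0.64 and 0.14 in wildtype at day 7 and overlapping values of -1.04 to -0.25 at day 14. It changed by -2.54 ± 0.30 (adjusted p = 0.0054). Slc36a2, an amino acid transporter gene, was high in wildtype at day 14 alone, at 3.34, 3.29 and 2.21, and changed by -3.11 ± 0.45 (adjusted p = 0.0091).

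Npl, an enzyme of sialic acid breakdown, changed by -2.82 ± 0.40 (adjusted p = 0.0091) and crossed without overlap, from 1.15 at day 7 to -1.67 at day 14. The day 7 difference of Npl did not pass (limma, adjusted p = 0.061), and that at day 14 did (adjusted p = 0.01). Serinc5, a membrane protein that restricts retroviruses, passed on both days in opposite directions, at 1.31 and -1.08, with a change of -2.39 ± 0.36 (adjusted p = 0.011). Dennd4c (-2.54 ± 0.54), Klhl2 (-2.25 ± 0.44), the integrin gene Itga6 (-2.25 ± 0.47) and the phosphatidate phosphatase gene Lpin1 (-2.22 ± 0.45) complete the 12 largest falls. Among the 12 largest rises, Slamf8, a macrophage receptor, and Cxcr6 were in none of the lists. Slamf8 was at -2.27, -2.30 and -2.99 in IFNAR-/- at day 7 and changed by 3.37 ± 0.54 (adjusted p = 0.013).

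**Figure D4:**
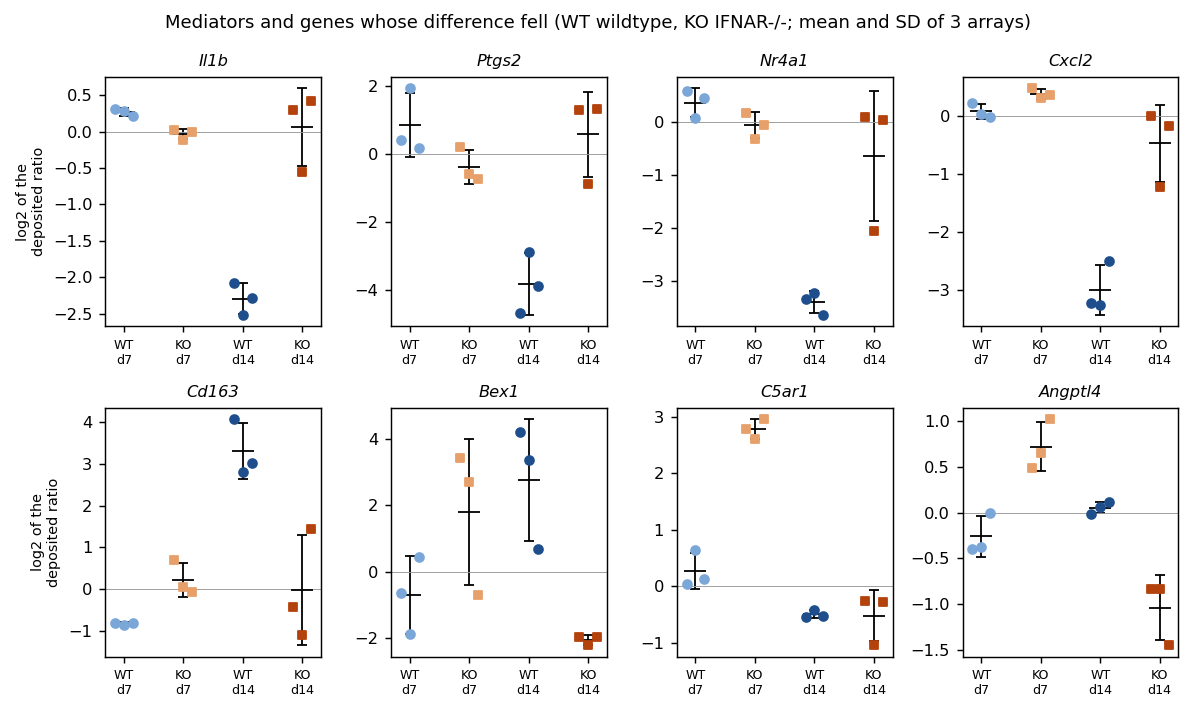
Log2 of the deposited ratio on each array for 3 mediators and the immediate-early gene Nr4a1 (top row) and 4 genes whose difference fell (bottom row), by genotype and day (WT wildtype, circles; KO IFNAR-/-, squares; d7 day 7; d14 day 14), with the mean and standard deviation of 3 arrays. The top row genes are lowest in wildtype at day 14 (Il1b -2.51 to -2.08), Cd163 is highest there, C5ar1 is high in IFNAR-/- at day 7 alone, and Bex1 varies widely within its groups.

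The 14 lists without a call were those of the unfolded protein response, heat shock proteins, B cells, plasmacytoid dendritic cells, neutrophils, eosinophils with basophils and mast cells, lung epithelium, endothelium, fibroblasts, erythroid cells, the circadian clock, the mitochondrial respiratory chain, cytosolic ribosomal proteins and sex-linked transcripts. At an unadjusted p under 0.05, 23 of their 215 genes passed (10.7%, with 6 above and 17 below 0), against 3284 of all genes (18.1%). Their median changes lay between -0.63 (sex-linked) and 0.39 (lung epithelium). The neutrophil gene Lcn2 had a difference of 1.86 at day 7 that did not pass (limma, adjusted p = 0.31), and its arrays overlapped there. Its difference of 3.60 at day 14 passed (adjusted p = 0.027), and its change of 1.74 ± 1.11 did not (adjusted p = 0.45). The clock gene Per1 changed by -0.75 ± 0.33 (adjusted p = 0.25). The medians of the epithelial and endothelial lists moved with the arrays used: without 1 array they ranged from -0.14 to 1.03 and from -0.72 to 0.67.

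**Figure D5:**
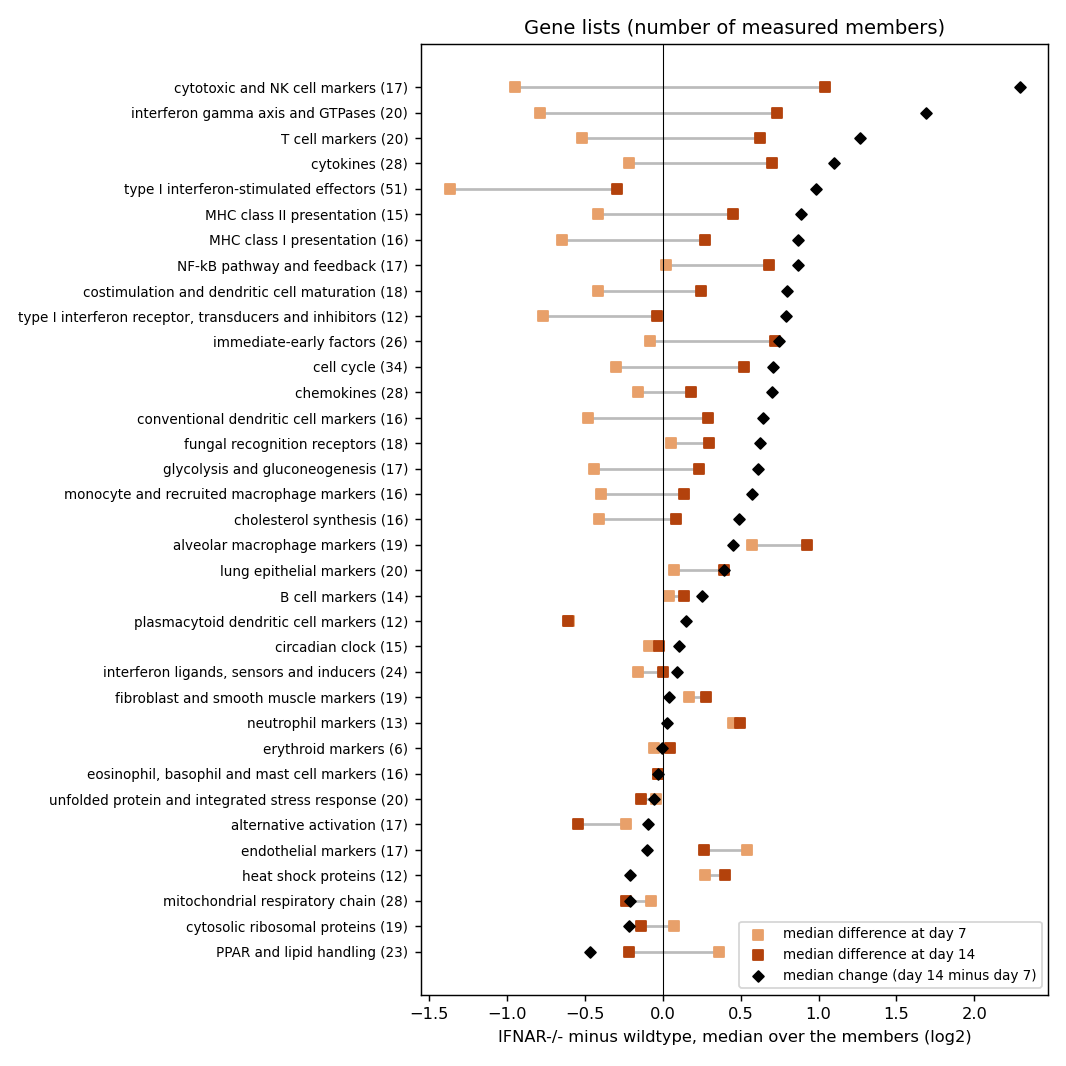
Median over the measured members of each gene list (number of members in brackets) of the difference IFNAR-/- minus wildtype at day 7 (light squares) and day 14 (dark squares) and of the change (black diamonds), on the log2 scale. The cytotoxic and NK cell list has the largest median change (2.29) and the PPAR and lipid list the lowest (-0.47) of the lists drawn, which leave out sex-linked transcripts, and the interferon-stimulated effectors move towards 0 from -1.37.

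The threshold cut through a dense range of values. The genes just inside it were Trmt10c (change -0.67, adjusted p = 0.0499) and Sppl2a (1.30, 0.0499), and those just outside were Sap30l (-0.80, 0.0501) and Cmss1 (-0.78, 0.0501). Of the called genes 205 were averaged from several probe sets, and in 24 of these the probe sets differed in sign. At least 1 probe set passed by itself in 366 of the 451.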

How the data were processed

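RNA of CD11c+ lung cells from 12 mice was measured on a 1-colour Affymetrix mouse array, 1 mouse an array, with 3 arrays in each of 4 groups taken from the labels. The authors summarised probe sets with RMA, per the submitters' processing notes, with no version given. The deposited values are ratios: every probe set had a median within 0.02 of 1 over the 12 arrays, so each value was read as a ratio to about that median, a division the sources used here do not state. Levels of different genes therefore cannot be compared, and scanner files were not used here.

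The log2 of the deposited ratio was taken, 64 control probe sets and 10092 with no symbol or several were set aside, and 34945 probe sets were averaged to 18193 genes. limma 3.58.1 in R 4.3.3 was fitted with 4 group means (8 residual degrees of freedom), with Benjamini-Hochberg adjustment over all genes. The script was tested on simulated data. The p-values measure the spread between mice of a group.

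The contrast, the members and the 36 gene lists were chosen with earlier results of these data known. Named genes are the 12 largest rises and 12 largest falls past the threshold, up to 4 members of each list with the lowest p, a set list of interferon, macrophage and inflammatory genes, and those next to the threshold. Other names are said to be chosen after their values were seen, among them list members that did not pass. Alternatives varied the probe set summary, normalization, filter, prior, weights, covariates, mouse number block, threshold and arrays.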

Additional observations from a re-analysis of the deposited data

Results flagged for a closer look

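The genes below, 94 in all, are those named genes whose IFNAR-/- minus wildtype difference itself differed between day 7 and day 14, by limma's test of the change with Benjamini-Hochberg adjustment over 18193 genes. Each value is the change on the log2 scale, with n = 3 arrays in each of 4 groups. They are ordered by how many of the 12 fits that each left out 1 array still called them, which says how far a call rested on single arrays. Their causes were not tested.

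A first group of 43 genes passed in all 12 fits. Of these 29 rose, with changes of 5.61 for Ptgs2, 4.82 for Cxcl9, 3.82 for Cxcr6, 3.44 for Cd3g, 3.37 for Slamf8, 3.24 for Slc39a2, 3.02 for Mx1 and 2.75 for Nr4a2. Next among the genes that rose were changes of 2.66 for Il1b, 2.58 for Fasl, 2.07 for Ccr7, 2.00 for Lgals3bp, 1.97 for Kmo, 1.96 for Cxcr3, 1.90 for Dusp2 and 1.87 for Hk3. Further genes that rose had changes of 1.86 for Itgae, 1.76 for Il2rb, 1.74 for Eif2ak2, 1.70 for Oas1a, 1.65 for Cx3cr1, 1.63 for Sting1, 1.63 for Nfkbie and 1.62 for Fscn1. The smallest changes of genes that rose were 1.46 for H2-Ab1, 1.41 for H2-Aa, 1.19 for H2-DMa, 0.97 for Clec7a and 0.86 for Cd74. Of these 14 fell, with changes of -4.38 for Cd163, -3.22 for Adamtsl4, -3.11 for Slc36a2, -2.92 for Ifnb1, -2.82 for Npl, -2.54 for C5ar1, -2.39 for Serinc5 and -2.08 for Angptl4. Next among the genes that fell were changes of -1.92 for Zfp809, -1.86 for Zfp704, -1.53 for Folr2, -1.51 for Fkbp5, -1.32 for Ech1 and -1.28 for Glul.

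Another 20 genes passed in 6 to 11 of the 12 fits. Of these 17 rose, with changes of 6.68 for Ubd, 4.22 for Nkg7, 3.96 for Ifng, 3.55 for Thy1, 3.37 for Cd8b1, 3.34 for Klrk1, 3.05 for Cd3d and 2.90 for H2-Oa. Next among the genes that rose were changes of 2.24 for Cxcl2, 2.19 for Traf1, 2.07 for Klrg1, 2.07 for Socs1, 1.77 for Irf8, 1.72 for Pfkp, 1.62 for Ciita and 1.47 for Atf3. Further genes that rose had changes of 1.37 for Dhx58. Of these 3 fell, with changes of -2.25 for Klhl2, -1.59 for Zbtb16 and -1.42 for Plin2.

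The call of 30 genes held in only 1 to 5 of the 12 fits. Of these 22 rose, with changes of 4.15 for Gzmb, 3.20 for Nr4a1, 2.53 for Fosb, 2.41 for Il1a, 2.15 for Osm, 2.04 for Cd83, 1.99 for Tbx21 and 1.98 for Btla. Next among the genes that rose were changes of 1.97 for Ier3, 1.81 for Cd86, 1.79 for Oas3, 1.30 for Sppl2a, 1.29 for Gadd45b, 1.21 for Tap2, 1.17 for Hk1 and 1.15 for Cdk1. Further genes that rose had changes of 0.96 for Fdps, 0.96 for Psme1, 0.94 for Eomes, 0.89 for H2-K1, 0.83 for Tap1 and 0.79 for Ptpn6. Of these 8 fell, with changes of -7.33 for Bex1, -2.54 for Dennd4c, -2.25 for Itga6, -2.22 for Lpin1, -1.28 for Ifngr1, -1.16 for Ticam1, -0.84 for Tsc22d3 and -0.67 for Trmt10c. Cebpd, with a change of -1.28, passed in 0 of the 12 fits.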

How the results depend on the processing

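The count of 451 genes (208 that rose, 243 that fell) depended on the model and on the arrays. It was 845 (340 and 505) for each probe set by itself, 1765 (773 and 992) with array weights, 185 (109 and 76) with the poly-A signal in the fit and 3 (1 and 2) with the 5'/3' signal. Of the named genes only Adamtsl4 and Slc36a2 passed the last, and no member of any gene list did. It was 302 (148 and 154) with a trended robust prior, 579 (320 and 259) without IFNAR-/- day 7 mouse 3 and IFNAR-/- day 14 mouse 2, and 366 (219 and 147) without wildtype day 7 mouse 1 too, an alternative added after seeing the data. A 2-fold minimum left 296 (133 fell), and an adjusted p under 0.10 gave 1083 (445 and 638). Leaving out 1 array gave 138 to 485 genes, 74 to 256 that rose and 60 to 249 that fell. The cause of these shifts was not tested. Quantile normalization, median subtraction, the probe set of largest spread and a filter on low variation gave 423 to 576 genes. Different mice were taken in each group, so the numbers do not pair mice. Arrays of the same mouse number did not deviate together (median correlation -0.02, with 3 of 18 pairs above 0.1). With 3 arrays a group, some of which stood apart, this cannot exclude a shared handling by number. With the mouse number as a replicate block 325 genes passed (175 and 150), 283 of them among the 451. In 2714 refits of named genes under the alternatives 0 called changes turned their sign, 2037 kept their side of the threshold, 628 lost it and 49 gained it. All 451 kept their sign with either covariate, with the block and without those 2 or 3 arrays. Genes called from these same arrays were likely to keep their sign, so the kept signs are no test. The values are ratios to a median, so signal over background is unknown.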

Other observations

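Several further genes whose difference fell were singled out after their values were seen. Fkbp5, a co-chaperone of steroid receptors, had a difference of 1.51 at day 7 and 0.00 at day 14, and its log2 ratio at day 7 was -0.08, -0.38 and 0.02 in wildtype mice, against 1.46, 1.24 and 1.39 in IFNAR-/- mice. At day 14 it was -0.36, 0.25 and 0.17 and 0.12, 0.08 and -0.12, and the change was -1.51 ± 0.23 (limma, adjusted p = 0.012). Zbtb16, the transcription factor PLZF, changed by -1.59 ± 0.28 and Glul, glutamine synthetase, by -1.28 ± 0.20 (adjusted p = 0.019 and 0.013). Tsc22d3, the leucine zipper protein GILZ, changed by -0.84 ± 0.19 and the transcription factor Cebpd by -1.28 ± 0.28 (adjusted p = 0.045 and 0.043). Fkbp5, Zbtb16 and Tsc22d3 are known to be induced by glucocorticoids. In a list of 18 genes known for that, made after values were seen and holding Cd163 and Angptl4 as well, 7 fell, 0 rose and 14 had a change below 0; its making with these values known leaves nothing to be read from the count. Members that did not pass include Klf9 and Dusp1, with a change of -1.19 ± 0.39 for Klf9 and 0.37 ± 0.23 for Dusp1 (adjusted p = 0.13 and 0.42).

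Genes with a symbol of Zfp and a number, which name zinc finger proteins, were looked at after their values were seen. Of 336 measured 23 fell (6.85%, against 1.34% of all genes) and 0 rose, and the median change was -0.24. A change below 0 was seen in 248 of them and in 9245 of all 18193 genes. The group was made with these values known, so nothing can be read from its counts. Zfp809, a repressor of endogenous retroviruses, changed by -1.92 ± 0.31 and Zfp704 by -1.86 ± 0.32 (adjusted p = 0.013 and 0.017). Many of these genes share sequence, and cross-hybridisation between them was not tested. Of 10092 probe sets with no symbol or with several, 48 rose and 60 fell, and they are not named.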
